A study of Mus musculus with 16 samples.

Results

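Type I interferon-stimulated genes were followed in mouse colon as 32 genes of the 39328 in the table. They were the rows whose Ensembl gene identifiers carry the symbols of a list that joins the regulators, the ISG15 system, the IFIT and OAS families, antiviral effectors, nucleic acid sensors and further induced genes. All 32 were found, and each was above 0 in all 16 libraries. Adult wild-type mice of the outbred ICR strain were used, delivered vaginally (VD) or through cesarean section (CS). They drank normal water, groups CON_VD and CON_CS, or water with 3% dextran sulfate sodium (DSS) for 8 days, groups DSS_VD and DSS_CS. DSS is a sulfated polymer that injures the colon lining. Each group held 4 libraries of whole colon RNA. The labels give no sex, litter or colon segment, and do not state that every library is a separate mouse, so p-values describe the spread among libraries, which may be technical. Levels are FPKM, read fragments scaled to gene length and library size, as the authors deposited them. Means are given ± SD (n = 4 libraries) and log2 changes ± SE.

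Type I interferons are secreted when cells sense viral or misplaced nucleic acid. They bind a receptor of IFNAR1 and IFNAR2 on most cells, where the kinases JAK1 and TYK2 activate STAT2, which joins IRF9 in the complex ISGF3. ISGF3 binds the interferon-stimulated response element (ISRE), a repeat of GAAA in promoters, and raises a shared set of antiviral genes. In the gut, type III interferons act on epithelial cells through another receptor and the same complex, so these genes do not tell the interferon types apart.

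Promoter windows from 250 bases before to 50 after the start of transcription, from RefSeq on GRCm38.p6, were at hand for 23 of the 32 genes. The letters GAAA, any 2 bases and GAAA again were searched on both strands. They occurred in windows of 14 of the 23 genes (60.9%), beside 1079 of all 27025 genes that have such a window (3.99%). A match is a description of letters, and a window without one says nothing of the factors. Stretches of the 200 bases before a start are printed 5′ to 3′ on the gene's strand, with the ISRE letters or their reverse complement in capitals. The genes printed all hold matches, so they are not typical of the 23. Ifit2, Irf7, Oasl1 and Cmpk2, whose values by library are given below, have no match and are not printed. Isg15 is shown for its run of overlapping matches, Ifit1 for its pair, Ifit1bl1 because it differed in 3 comparisons, and Oas1a and Oas1g because they are near copies.
Isg15 (chr4:156200819-156201018, minus strand): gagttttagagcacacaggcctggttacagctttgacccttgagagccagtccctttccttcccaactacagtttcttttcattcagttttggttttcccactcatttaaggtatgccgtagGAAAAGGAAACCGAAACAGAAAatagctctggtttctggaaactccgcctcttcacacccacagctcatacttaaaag
Ifit1 (chr19:34640689-34640888, plus strand): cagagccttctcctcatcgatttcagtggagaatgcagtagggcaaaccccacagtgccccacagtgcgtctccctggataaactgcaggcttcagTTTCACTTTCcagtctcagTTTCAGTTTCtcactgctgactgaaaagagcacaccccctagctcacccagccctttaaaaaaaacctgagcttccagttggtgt
Ifit1bl1 (chr19:34601969-34602168, minus strand): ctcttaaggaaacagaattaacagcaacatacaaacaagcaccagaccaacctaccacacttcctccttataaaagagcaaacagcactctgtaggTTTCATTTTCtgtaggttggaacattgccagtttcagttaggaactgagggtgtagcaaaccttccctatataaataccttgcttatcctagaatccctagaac
Ifit1bl1, other start (chr19:34599428-34599627, minus strand): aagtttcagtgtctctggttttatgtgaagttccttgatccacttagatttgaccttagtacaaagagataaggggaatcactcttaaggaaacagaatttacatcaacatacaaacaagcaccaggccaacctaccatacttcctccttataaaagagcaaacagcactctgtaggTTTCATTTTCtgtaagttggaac
Oas1a (chr5:120907526-120907725, minus strand): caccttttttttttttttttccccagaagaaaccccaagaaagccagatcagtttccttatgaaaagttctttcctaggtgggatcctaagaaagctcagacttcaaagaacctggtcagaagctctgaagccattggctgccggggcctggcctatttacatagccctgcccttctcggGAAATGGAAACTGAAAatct
Oas1g (chr5:120887614-120887813, minus strand): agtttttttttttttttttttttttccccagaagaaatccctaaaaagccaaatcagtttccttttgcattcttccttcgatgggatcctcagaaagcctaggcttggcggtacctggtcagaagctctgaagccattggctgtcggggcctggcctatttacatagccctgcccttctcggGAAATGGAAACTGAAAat

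The Isg15 stretch held 3 overlapping matches that begin at -78, -72 and -66 bases from the start. Ifit1 held 2 matches on the opposite strand, at -104 and -85, and each of the 2 annotated starts of Ifit1bl1 had 1. Oas1a and Oas1g carried the same pair of overlapping matches, at -20 and -14 and at -18 and -12, and their windows were 85.3% identical over the aligned length. Ifih1 and Eif2ak2 had their match after the start, at base 33 and base 19. The 9 genes without a match were Cmpk2, Herc6, Ifi44, Ifit2, Irf7, Irf9, Oasl1, Oasl2 and Xaf1.

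**Figure D1:**
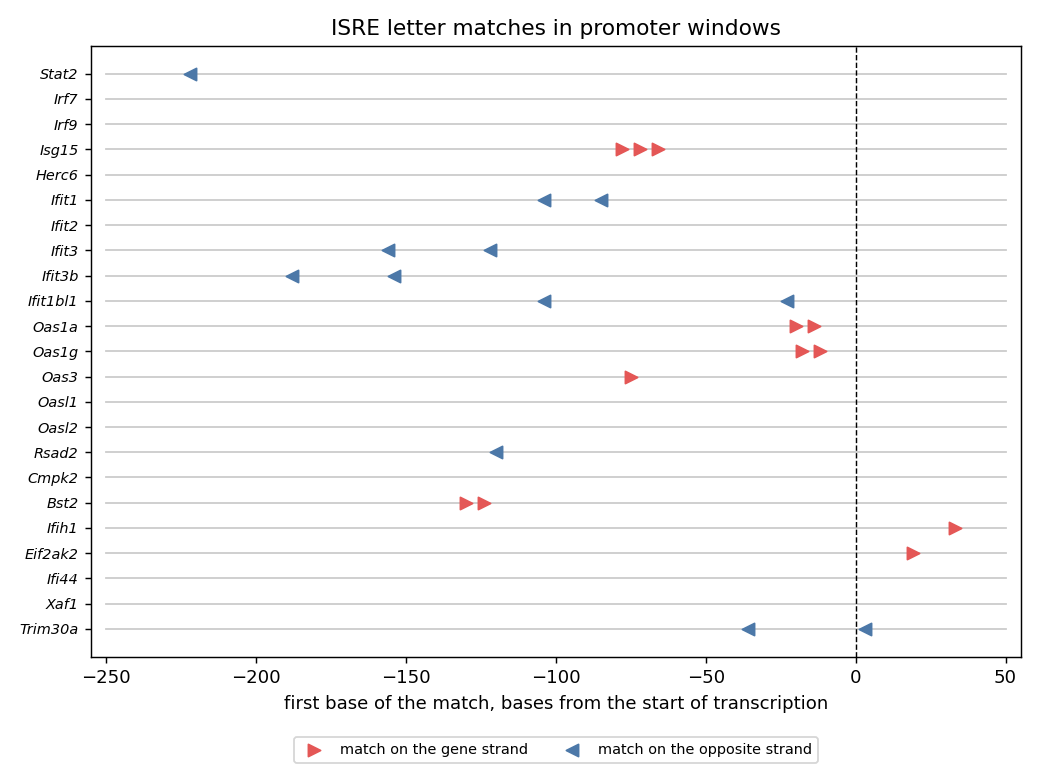
Matches of the ISRE letters (GAAA, any 2 bases, GAAA) or their reverse complement in the promoter windows of 23 interferon-stimulated genes, by the distance in bases of the first base of the match from the start of transcription, at 0; red triangles are on the gene's strand and blue ones on the opposite strand. The 2 matches of Ifit1bl1 belong to 2 different starts, as do the 2 matches of Trim30a. Matches of 14 genes are seen, most of them before the start.

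The libraries differed in cell content as well as in treatment. Summed FPKM of 10 epithelial markers, Epcam and Krt8 among them, ranged from 4279 to 5072 in CON_VD, 4964 to 5213 in CON_CS, 2237 to 4767 in DSS_VD and 789 to 2372 in DSS_CS, so colon epithelium was seen in every library. In bulk tissue, fewer cells of a type and less RNA per cell cannot be told apart. The 6 pan-leukocyte markers summed to 16.5 to 22.3 in CON_CS, 190.1 to 366 in DSS_VD and 250.4 to 389 in DSS_CS. CON_VD replicate 1 stood apart within its group, with 76.2 against 20.3 to 24.7 for these markers and 43.7 against 2.46 to 5.44 for 8 B cell markers. Results that rest on it are given with and without it. Pbsn, expressed in prostate, stood at 185 FPKM in CON_CS replicate 1, 128 in DSS_CS replicate 3 and 1355 in DSS_CS replicate 4, and at most 0.526 in the other 13 libraries. The 6 markers listed for plasmacytoid dendritic cells, which make much type I interferon, summed to 559.6 to 649 in CON_VD, 442 to 507 in CON_CS, 30.4 to 82.7 in DSS_VD and 6.45 to 23.2 in DSS_CS. Most of that sum was Klk1, also a kallikrein of colon, which fell under DSS in VD and in CS mice and was lower in DSS_CS than in DSS_VD. The other 5 stayed at or below 1.80 FPKM, the highest value of Siglech, and Cox6a2 and Cd300c were listed at 0 in some libraries.

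As single genes the members spanned from Ifi44, with a mean of 0.968 FPKM over the 16 libraries, to Ifi27l2a with 166 and Ifit1bl1 with 133. Their high and low values fell mostly in the same libraries. CON_VD replicate 1 had the highest value of its group for all 32 genes, and DSS_VD replicate 1 did so for all 32 in its own. Replicate 1 was also the highest for 26 of 32 genes in CON_CS and for 28 in DSS_CS. The lowest values lay mostly in CON_VD replicate 3 (24 genes), CON_CS replicate 3 (30), DSS_VD replicate 4 (25) and DSS_CS replicate 2 (23). Of all 16 libraries, DSS_VD replicate 1 was the highest for 28 genes and CON_VD replicate 1 for the other 4. The median of the 32 genes was 13.7, 2.69, 2.19 and 7.13 FPKM in CON_VD replicates 1 to 4 and 13.1, 10.4, 4.06 and 8.06 in CON_CS. In DSS_VD it was 23.2, 14.0, 15.63 and 9.01, and in DSS_CS 13.4, 4.84, 6.44 and 6.84. The groups overlapped in this median, with 3 of the 4 DSS_CS libraries below every DSS_VD library.

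**Figure D2:**
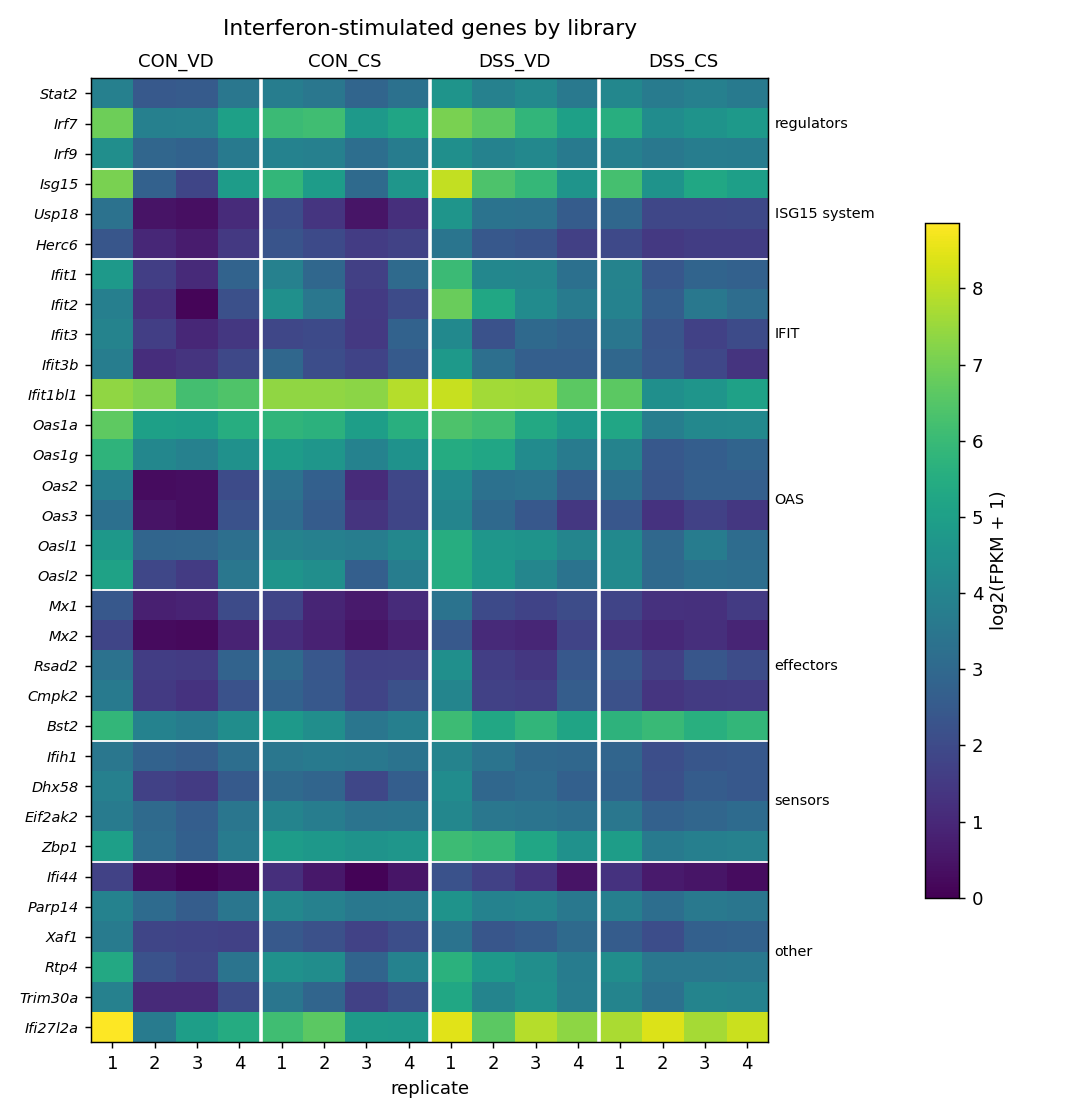
Level of each of the 32 interferon-stimulated genes as log2(FPKM + 1), with genes in rows by role, libraries in columns by group and replicate, and colour from dark (low) to yellow (high). The first column of CON_VD and of DSS_VD is the brightest of its group in every row.

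**Figure D3:**
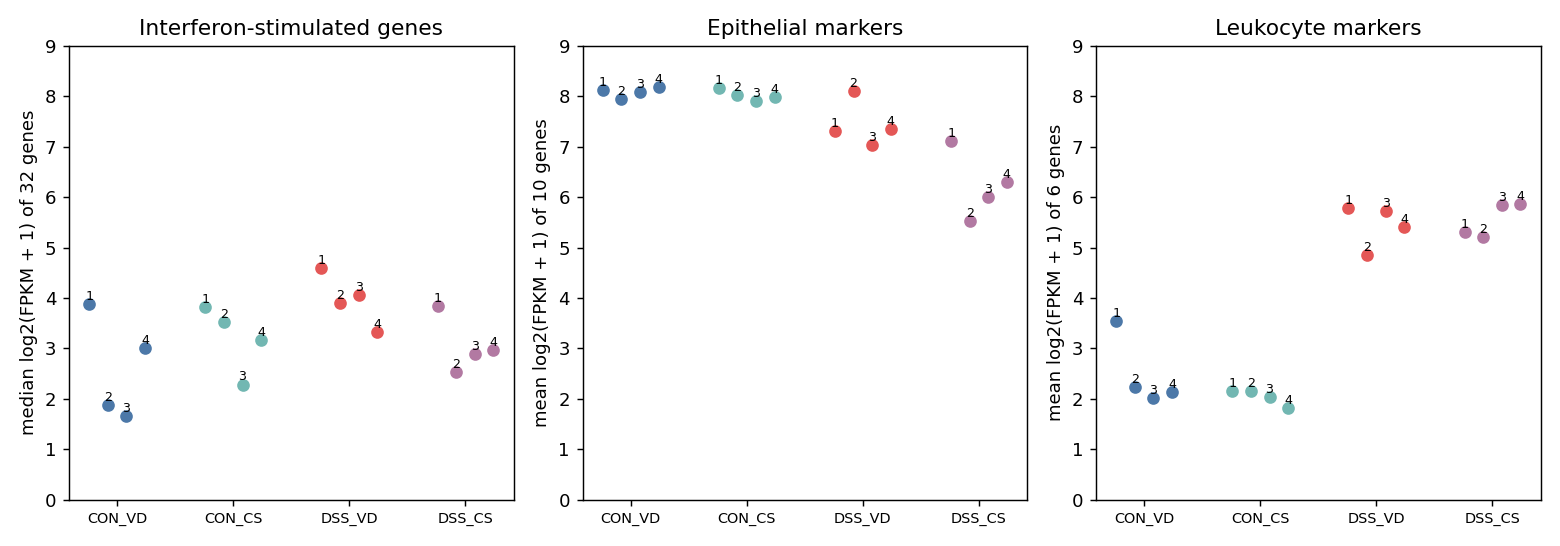
Median log2(FPKM + 1) of the 32 interferon-stimulated genes in each library (left), beside the mean log2(FPKM + 1) of 10 epithelial markers (middle) and 6 leukocyte markers (right); numbers give the replicate. CON_VD replicate 1 is the highest water library in the left and right panels, and DSS_CS replicate 1 is the highest of its group in the left and middle panels.

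The interferons themselves were near or at the floor of the table. Ifnb1, Ifna4 and Ifnk were listed at 0 in all 16 libraries. Ifna2 and Ifna5 were above 0 in 1 library each, at 0.0387 and 0.187 FPKM, and the type III interferon Ifnl2 in 2, at up to 0.102. The highest value of Ifnz was 0.140, and that of Ifng, the type II interferon, was 0.495. None of these 8 genes passed the filter of at least 1 FPKM in 4 libraries, so none was tested. No gene row was matched to the symbols Ifna1, Ifne or Ifnl3, so they were not analysed here. With depth unknown, a value of 0 in this table gives no limit on the transcript.

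Of the receptors, both type I subunits rose under DSS in VD and in CS mice, where 24% and 34.4% of all tested genes rose and 17% and 25.9% fell. Ifnar1 stood at 7.74, 7.94, 7.57 and 7.31 FPKM in CON_VD and 7.90, 8.4004, 7.85 and 7.46 in CON_CS. Under DSS it was at 15.01, 9.21, 14.4 and 12.5 in DSS_VD and 13.4, 15.5, 17.7 and 19.0 in DSS_CS. Neither DSS group overlapped its water group, and the log2 change was 0.65 ± 0.14 in VD mice and 0.96 ± 0.11 in CS mice (limma adjusted p = 0.00594 and 7.90e-05). Ifnar2, the signalling subunit that USP18 binds, was at 3.57, 2.53, 2.61 and 2.61 in CON_VD and 2.87, 2.34, 1.99 and 2.59 in CON_CS, and at 13.8, 7.02, 13.8 and 12.1 in DSS_VD and 15.68, 18.7, 20.3 and 20.4 in DSS_CS. The DSS groups were again above all water libraries. Its log2 change under DSS was 1.69 ± 0.20 in VD mice (limma adjusted p = 2.42e-04) and 2.52 ± 0.11 in CS mice (adjusted p = 5.95e-07), and the response was larger in CS mice by 0.82 ± 0.24 (interaction adjusted p = 0.0383). Leaving out any 1 of 8 libraries ended that last call, CON_VD replicate 1 or 3, CON_CS replicate 2, 3 or 4 or DSS_CS replicate 2, 3 or 4, with an adjusted p of 0.0254 to 0.127 over the alternatives. Ifnlr1, the epithelial receptor of type III interferon, had means of 3.56 ± 0.689, 2.88 ± 0.189, 4.73 ± 1.15 and 2.96 ± 1.004 FPKM in CON_VD, CON_CS, DSS_VD and DSS_CS and passed in none of the 5 tests. The interferon gamma receptor subunits Ifngr1 and Ifngr2 were lower in DSS_CS than in DSS_VD, with log2 differences of -0.68 ± 0.15 and -0.58 ± 0.16 (adjusted p = 0.0339 and 0.0488). Both of these calls were lost without DSS_VD replicate 1 or 2 or DSS_CS replicate 2, 3 or 4, Ifngr1 also without DSS_VD replicate 3 and Ifngr2 without DSS_VD replicate 4, and their limma adjusted p ranged over 0.00594 to 0.109 and 0.0258 to 0.180. Over all 18 alternatives Ifngr1 lost its call in 10 and Ifngr2 in 13, both with no filter. Ifngr2 also lost it with a pseudocount of 0.1, with FPKM rescaled to a common sum and with median-of-ratios scaling. Ifngr1 and Ifngr2 fell under DSS in CS mice, by 0.58 ± 0.16 and 0.72 ± 0.13 (adjusted p = 0.0112 and 0.00122). Il10rb, the shared subunit of the type III receptor, rose by 0.45 ± 0.12 in VD mice and 0.50 ± 0.10 in CS mice (adjusted p = 0.0141 and 0.00228).

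Below the receptor, the kinase genes Jak1 and Jak2 and the feedback inhibitor genes Socs1 and Socs3 rose under DSS in VD mice. None of the 8 signalling genes tested there fell. The log2 change of Tyk2, whose kinase was named above with JAK1, was -0.02 ± 0.09 in VD mice (limma adjusted p = 0.866). Tyk2 stood at 5.22 to 7.04 FPKM over the 16 libraries and passed in no comparison. In CS mice Jak1, Socs1 and Socs3 rose, and Irf1 and Irf2 fell by 0.72 ± 0.20 and 0.86 ± 0.13 (limma adjusted p = 0.0134 and 4.22e-04). Socs3 had the largest change of the pathway, 3.94 ± 0.32 in VD mice and 4.90 ± 0.28 in CS mice (adjusted p = 5.35e-05 and 1.79e-06). Among genes that induce interferon, 5 of 12 tested rose in VD mice (Sting1, Tlr7, Tlr9, Myd88 and Irf8) and Mavs fell, beside 24% and 17% of all genes. In CS mice the same 5 and Rigi rose, of 13 tested, and Mavs and Tlr3 fell, beside 34.4% and 25.9% of all genes. Tlr7 and Tlr9 were at most 0.589 and 0.401 FPKM on water and passed the filter only through DSS libraries. These 2 genes could therefore only be called as rising. Sting1, the adaptor of cytosolic DNA sensing, went from 5.06 ± 1.68 to 22.9 ± 3.18 FPKM in VD mice and from 5.80 ± 0.945 to 25.1 ± 1.65 in CS mice. Tlr3, the endosomal sensor of double-stranded RNA, was lower in DSS_CS than in DSS_VD, a log2 difference of -0.54 ± 0.13 (adjusted p = 0.0385). This call was lost without DSS_VD replicate 1, 2 or 4 or DSS_CS replicate 2, 3 or 4, and its limma adjusted p ranged over 0.00730 to 0.147. It was the 1 of 13 genes of this list past the threshold there, a share near the 5.54% of all genes that were lower (7.89% were higher), and no signalling gene passed. The interaction of delivery and DSS was below 0 past the threshold for Tlr3, Ifngr1, Jak2, Irf1 and Irf2, beside 6.55% of all genes. The calls on Tlr3 and Irf2 held with any 1 library left out, whereas Ifngr1, Irf1 and Jak2 lost theirs in 4, 7 and 11 of the 16 such fits, with limma adjusted p of up to 0.0616, 0.0922 and 0.113 over the alternatives. With no filter the interaction calls on Ifngr1, Irf1 and Jak2 were also lost. No gene of the pathway lists passed on water.

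Values by library are given next for the members that passed in any comparison and the most abundant of each role. The 6 OAS genes lie on chromosome 5 and the 5 IFIT genes on chromosome 19. Exons of Irf7, Irf9, Usp18, Oasl1, Dhx58, Eif2ak2, Herc6, Parp14 and Rtp4 overlap those of another annotated gene, and the counting strand is unknown, so their levels may hold its reads. Of the regulators, Irf7, the factor that drives interferon alpha genes (ENSMUSG00000025498, chromosome 7, 141262706 to 141266481, GRCm38), was at 118, 13.5, 13.7 and 31.7 FPKM in CON_VD and 64.5, 70.0, 26.0 and 36.0 in CON_CS. Under DSS it was at 134, 97.5, 56.2 and 32.1 in DSS_VD and 45.8, 18.9, 22.3 and 26.4 in DSS_CS. Every pair of groups overlapped, and 3 of 4 DSS_CS libraries were below all DSS_VD libraries. Stat2 (ENSMUSG00000040033, chromosome 10, 128270559 to 128292849) was at 13.4, 4.59, 4.76 and 10.4 in CON_VD, 12.5, 10.5, 6.38 and 8.83 in CON_CS, 23.0, 13.8, 16.8 and 10.8 in DSS_VD and 16.2, 11.7, 13.6 and 11.4 in DSS_CS. Its lowest values were in CON_VD replicates 2 and 3, and the VD groups overlapped because CON_VD replicate 1 was above DSS_VD replicate 4. Irf9, the DNA-binding part of ISGF3, had means between 10.9 and 15.57 FPKM in the 4 groups.

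The ISG15 system couples a ubiquitin-like protein to others. Isg15 (ENSMUSG00000035692, chromosome 4, 156199424 to 156200818) was at 133, 5.71, 2.63 and 28.7 FPKM in CON_VD and 57.4, 28.8, 7.38 and 24.3 in CON_CS, and at 263, 82.7, 58.2 and 22.9 in DSS_VD and 75.3, 22.6, 38.2 and 31.3 in DSS_CS. Within each group its libraries spread widely, and every pair of groups overlapped. Usp18, which removes ISG15 and also restrains the type I receptor (ENSMUSG00000030107, chromosome 6, 121245906 to 121270917), was at 9.15, 0.368, 0.302 and 1.14 in CON_VD and 3.24, 1.57, 0.405 and 1.31 in CON_CS. Under DSS it was at 23.3, 9.35, 9.16 and 4.91 in DSS_VD and 6.82, 2.70, 2.66 and 2.82 in DSS_CS. Apart from CON_VD replicate 1, every CON_VD library was below every DSS_VD library, and the 2 CS groups overlapped. Herc6, the main ISG15 ligase of the mouse, had group means of 1.87 to 5.14 FPKM.

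IFIT proteins bind foreign RNA. Ifit1bl1, which encodes an IFIT1-like protein (ENSMUSG00000079339, chromosome 19, 34592891 to 34601956), was the most abundant IFIT gene at 168, 141, 72.6 and 84.3 FPKM in CON_VD and 165, 168, 158 and 233 in CON_CS. Under DSS it was at 278, 199, 191 and 98.1 in DSS_VD and 98.0, 20.5, 23.8 and 33.0 in DSS_CS. All DSS_CS libraries were below all others except the CON_VD ones, with DSS_CS replicate 1 just under DSS_VD replicate 4. Its transcripts share 18.7% of their 31-base stretches with Ifit1bl2. Ifit2 (ENSMUSG00000045932, chromosome 19, 34550694 to 34576419) was at 13.1, 1.41, 0.0793 and 3.46 in CON_VD and 20.7, 10.4, 1.81 and 3.02 in CON_CS, against 113, 37.6, 18.5 and 11.9 in DSS_VD and 14.2, 5.31, 10.6 and 7.995 in DSS_CS. DSS_VD replicate 1 was far above all other libraries, and DSS_VD replicate 4 was below CON_VD replicate 1. Ifit1, Ifit3 and Ifit3b had their highest group mean in DSS_VD, at 26.4 ± 25.9, 8.56 ± 6.11 and 11.3 ± 9.76 FPKM, and stood at 7.77 ± 4.69, 4.89 ± 3.64 and 3.84 ± 2.30 in DSS_CS. Of the stretches of 31 bases in Ifit3 transcripts, 61.8% also occur in Ifit3b, so the split of reads between these copies is uncertain.

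OAS enzymes make the oligoadenylates that activate RNase L. Oas1a (ENSMUSG00000052776, chromosome 5, 120896256 to 120907521) was at 100.02, 31.8, 30.5 and 45.2 FPKM in CON_VD and 54.7, 50.1, 30.1 and 47.4 in CON_CS, and at 83.0, 70.4, 39.8 and 26.5 in DSS_VD and 36.6, 12.8, 16.4 and 17.2 in DSS_CS. Oas1g (ENSMUSG00000066861, chromosome 5, 120876142 to 120887613) was at 52.8, 16.04, 13.7 and 21.2 in CON_VD and 28.9, 24.1, 14.1 and 22.1 in CON_CS, and at 43.1, 37.1, 18.3 and 11.9 in DSS_VD and 14.5, 4.37, 5.32 and 6.15 in DSS_CS. For both genes DSS_CS replicates 2, 3 and 4 were below every library of the other groups, and DSS_CS replicate 1 lay within their range. The pair share sequence, with 68.7% of the 31-base stretches of Oas1a also in Oas1g, so their levels are not independent measurements. Oasl1, an OAS-like protein that in the mouse restrains Irf7 translation (ENSMUSG00000041827, chromosome 5, 114923240 to 114937915), was at 25.2, 6.48, 6.55 and 8.35 in CON_VD and 14.5, 13.7, 12.5 and 16.1 in CON_CS, and at 45.2, 24.1, 22.5 and 15.5 in DSS_VD and 17.6, 6.93, 12.2 and 7.68 in DSS_CS. Its DSS_VD libraries were above all CON_VD libraries but replicate 1, and the 2 DSS groups overlapped. Oas2, Oas3 and Oasl2 were highest on average in DSS_VD, at 10.4 ± 5.38, 7.13 ± 5.82 and 23.6 ± 15.05 FPKM.

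Of the effectors, Bst2, the tetherin that holds budding virus at the cell surface (ENSMUSG00000046718, chromosome 8, 71534255 to 71537456), was at 57.1, 14.3, 12.05 and 19.1 FPKM in CON_VD and 26.2, 19.9, 10.1 and 13.1 in CON_CS, and at 66.8, 38.9, 55.6 and 35.1 in DSS_VD and 51.4, 63.1, 47.4 and 57.5 in DSS_CS. All DSS_CS libraries were above all CON_CS libraries, and the 2 DSS groups overlapped. Cmpk2, a mitochondrial nucleotide kinase beside Rsad2 on chromosome 12 (ENSMUSG00000020638, chromosome 12, 26469204 to 26479837), was at 11.3, 1.86, 1.45 and 3.65 in CON_VD and 5.84, 4.44, 2.52 and 3.54 in CON_CS, and at 15.5, 2.31, 2.12 and 5.16 in DSS_VD and 3.54, 1.60, 1.91 and 2.003 in DSS_CS. DSS_CS replicates 2 to 4 were below every CON_CS library. The antiviral enzyme gene Rsad2 had group means of 3.43 to 7.17 FPKM, and the GTPase genes Mx1 and Mx2 of 1.26 to 4.50 and 0.784 to 2.26. Mx2 is annotated as a polymorphic pseudogene in the mouse annotation used for positions.

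The sensors recognise viral or displaced nucleic acid. Ifih1, the MDA5 sensor of long double-stranded RNA (ENSMUSG00000026896, chromosome 2, 62595798 to 62646255), was at 10.4, 5.84, 5.15 and 8.12 FPKM in CON_VD and 10.5, 11.6, 10.7 and 9.37 in CON_CS. Under DSS it was at 14.6, 9.73, 7.19 and 6.75 in DSS_VD and 6.49, 3.37, 4.197 and 4.45 in DSS_CS. The DSS_CS libraries were below all DSS_VD and all CON_CS libraries. Zbp1, a sensor of Z-form nucleic acid that can start necroptosis (ENSMUSG00000027514, chromosome 2, 173206612 to 173218923), was at 30.7, 7.92, 5.53 and 11.7 in CON_VD and 29.1, 25.7, 22.2 and 24.3 in CON_CS, and at 65.9, 59.1, 36.6 and 21.5 in DSS_VD and 29.5, 11.7, 13.1 and 13.9 in DSS_CS. Its CON_CS libraries were close together and above all CON_VD libraries but replicate 1, and DSS_CS replicate 1 alone of its group reached the DSS_VD range. Eif2ak2, the kinase PKR that halts translation (ENSMUSG00000024079, chromosome 17, 78852564 to 78882573), was at 11.9, 7.39, 5.29 and 10.01 in CON_VD and 15.1, 12.3, 9.68 and 9.80 in CON_CS, and at 16.1, 10.5, 9.73 and 8.55 in DSS_VD and 10.4, 5.71, 6.63 and 7.53 in DSS_CS. The lowest 3 DSS_CS libraries were below all CON_CS libraries. Dhx58, the LGP2 helicase, ranged from 1.88 to 13.5 FPKM in CON_VD, 2.70 to 7.45 in CON_CS, 5.63 to 18.7 in DSS_VD and 3.51 to 5.92 in DSS_CS.

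Among the other genes, Trim30a, a TRIM family protein of the mouse (ENSMUSG00000030921, chromosome 7, 104409025 to 104465193), was at 13.9, 1.09, 1.08 and 3.06 FPKM in CON_VD and 10.02, 6.49, 2.30 and 3.52 in CON_CS, and at 37.4, 14.8, 20.9 and 12.4 in DSS_VD and 14.8, 8.998, 15.03 and 14.3 in DSS_CS. Without CON_VD replicate 1 its VD groups would be apart, and in CS mice 1 library of each group crossed over. Ifi27l2a, which encodes a small membrane protein (ENSMUSG00000079017, chromosome 12, 103442167 to 103443680), was at 463, 11.9, 30.3 and 43.0 in CON_VD and 69.5, 98.7, 27.1 and 26.2 in CON_CS, and at 354, 96.7, 234 and 161 in DSS_VD and 211, 336, 201 and 285 in DSS_CS. Its DSS_CS libraries were all above its CON_CS libraries, while CON_VD replicate 1 held the highest value of the 16. Parp14, a mono-ADP-ribosyltransferase, had group means of 9.20 to 15.69 FPKM, Rtp4 of 12.6 to 27.1, Xaf1 of 3.48 to 6.49 and Ifi44 of 0.570 to 1.96.

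**Figure D4:**
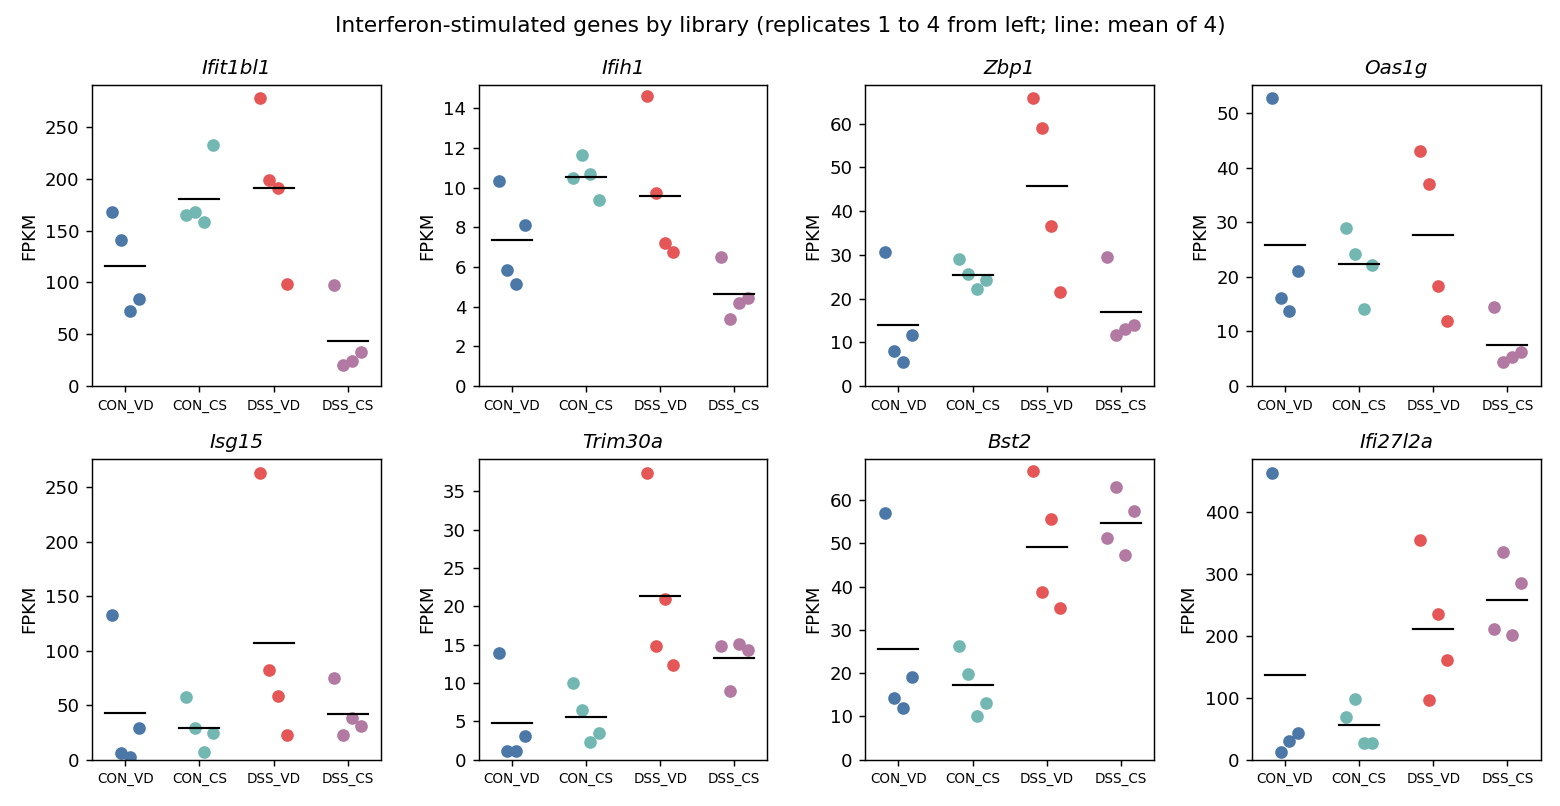
FPKM of 8 interferon-stimulated genes in each library (points, replicates 1 to 4 from left in each group) with the group mean (line). Ifit1bl1 and Ifih1 lie lower in all DSS_CS libraries than in any DSS_VD or CON_CS library, whereas Bst2 and Ifi27l2a lie higher in all DSS_CS libraries than in any CON_CS library.

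The first comparison asked whether birth mode altered these genes in the uninjured colon. No member passed the threshold on normal water (limma, adjusted p under 0.05), where 0.407% of all tested genes did. Of 30 members tested, 3 had an unadjusted p under 0.05, beside 19.6% of all genes. They were Ifih1, Zbp1 and Ifit1bl1, higher in CON_CS by 0.50 ± 0.18, 1.08 ± 0.41 and 0.70 ± 0.27 on the log2(FPKM + 1) scale (adjusted p = 0.196, 0.209 and 0.207). Differences were above 0 for 24 members and below 0 for 8, beside 55.9% of all tested genes above 0. The median of the members was 0.31 beside 0.03 over all genes. The ranges of the groups overlapped for all 32, while 10.7% of all genes had groups apart. Without CON_VD replicate 1 the median was 0.72, again with no member past the threshold. It was 0.0450 without CON_VD replicate 2 and 0.0414 without CON_VD replicate 3, with 19 and 17 members above 0, close to the median of all genes. The adjusted p of Zbp1 without CON_VD replicate 1 was 0.0565, in a range of 0.0565 to 0.397 over the alternatives.

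Next was the response of vaginally born mice to DSS. Log2 changes were above 0 for all 32 members, as for 55.1% of all tested genes, and their median was 1.08 beside 0.06. Trim30a, Ifit2, Zbp1, Usp18, Oasl1 and Stat2 rose past the threshold. These 6 of 32 stand beside 24% of all genes that rose and 17% that fell, a share no larger than the background. Ifit2 went from 4.52 ± 5.91 to 45.2 ± 46.5 FPKM, a log2 change of 3.18 ± 0.85 (adjusted p = 0.0150). Trim30a went from 4.78 ± 6.15 to 21.4 ± 11.3, a change of 2.35 ± 0.61 (adjusted p = 0.0134). Both passed in each of the 18 alternatives run. Usp18, from 2.74 ± 4.29 to 11.7 ± 8.02, rose by 2.15 ± 0.66, Zbp1 by 1.79 ± 0.50, Oasl1 by 1.25 ± 0.44 and Stat2 by 0.96 ± 0.34 (adjusted p = 0.0285, 0.0186, 0.0459 and 0.0489). Isg15, at 42.5 ± 61.5 and 107 ± 107, did not pass (adjusted p = 0.169).

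No member had its VD groups apart, against 38.6% of all genes. The count turned on single libraries: without CON_VD replicate 1, 21 members rose (22.3% of all genes rose in that fit). It was 2 without DSS_VD replicate 1 (17.7% of all genes rose), 2 without CON_VD replicate 2 or 3, and 3 without DSS_VD replicate 2 or 3. In the last 4 fits 4574 of 13652, 4464 of 13655, 5410 of 13348 and 4050 of 13270 genes passed in either direction. Usp18, Oasl1 and Stat2 lost their calls without CON_VD replicate 2 or 3 or DSS_VD replicate 1, 2 or 3, Usp18 and Oasl1 also without CON_VD replicate 4, and Zbp1 without CON_VD replicate 2 or 3 or DSS_VD replicate 1. With no filter Usp18, Oasl1, Stat2 and Zbp1 all lost their calls. Median-of-ratios scaling ended those on Oasl1 and Stat2, and a pseudocount of 0.1 that on Stat2. Over the alternatives the limma adjusted p of Usp18, Oasl1, Stat2 and Zbp1 ranged over 0.00134 to 0.0798, 0.00256 to 0.119, 0.0156 to 0.128 and 0.00279 to 0.0551. All 6 leukocyte and all 8 B cell markers rose in this comparison, with B cell sums of 2.46 to 43.7 FPKM in CON_VD and 130.5 to 262 in DSS_VD, and their part in these changes was not tested.

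In cesarean-born mice the members moved in both directions. Under DSS 3 rose and 6 fell, beside 34.4% and 25.9% of all genes. Changes were above 0 for 15 members and below 0 for 17, beside 54.3% of all tested genes above 0. The median log2 change of the members was -0.12. The direction of this median turned without CON_CS replicate 1 (0.0752) or without DSS_CS replicate 2. Ifi27l2a rose from 55.4 ± 35.2 to 258 ± 63.9 FPKM, by 2.40 ± 0.43 (adjusted p = 0.00112), Bst2 from 17.4 ± 7.20 to 54.8 ± 6.89, by 1.68 ± 0.26 (adjusted p = 4.75e-04), and Trim30a by 1.24 ± 0.35 (adjusted p = 0.0138). Ifit1bl1 fell from 181 ± 34.6 to 43.8 ± 36.5, by 2.30 ± 0.43 on the log2 scale (adjusted p = 0.00157), and Ifih1 from 10.6 ± 0.936 to 4.63 ± 1.33, by 1.06 ± 0.16 (adjusted p = 3.63e-04). Oas1g and Oas1a fell by 1.53 ± 0.34 and 1.18 ± 0.31 (adjusted p = 0.00372 and 0.00955). The smaller falls of Cmpk2, by 0.63 ± 0.23, and Eif2ak2, by 0.58 ± 0.19, had adjusted p of 0.0416 and 0.0257.

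Group ranges were apart for 2 members that rose, Bst2 and Ifi27l2a, and 2 that fell, Ifit1bl1 and Ifih1, beside 32.9% and 24.1% of all genes. Calls on Ifit1bl1, Oas1g, Ifih1, Bst2 and Ifi27l2a held in each of the 18 alternatives. Cmpk2 lost its call in 11 of them, among them leaving out CON_CS replicate 1, 2 or 4 or DSS_CS replicate 2, 3 or 4. Eif2ak2 lost it in 8, among them leaving out CON_CS replicate 1 or 2 or DSS_CS replicate 2, 3 or 4. Their limma adjusted p ranged over 0.0112 to 0.313 and 0.00571 to 0.138. Without DSS_CS replicates 3 and 4, which held Pbsn, Oas1a and Trim30a also lost theirs. All 10 epithelial markers fell and all 6 leukocyte markers rose in this comparison, and their part was not tested.

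**Figure D5:**
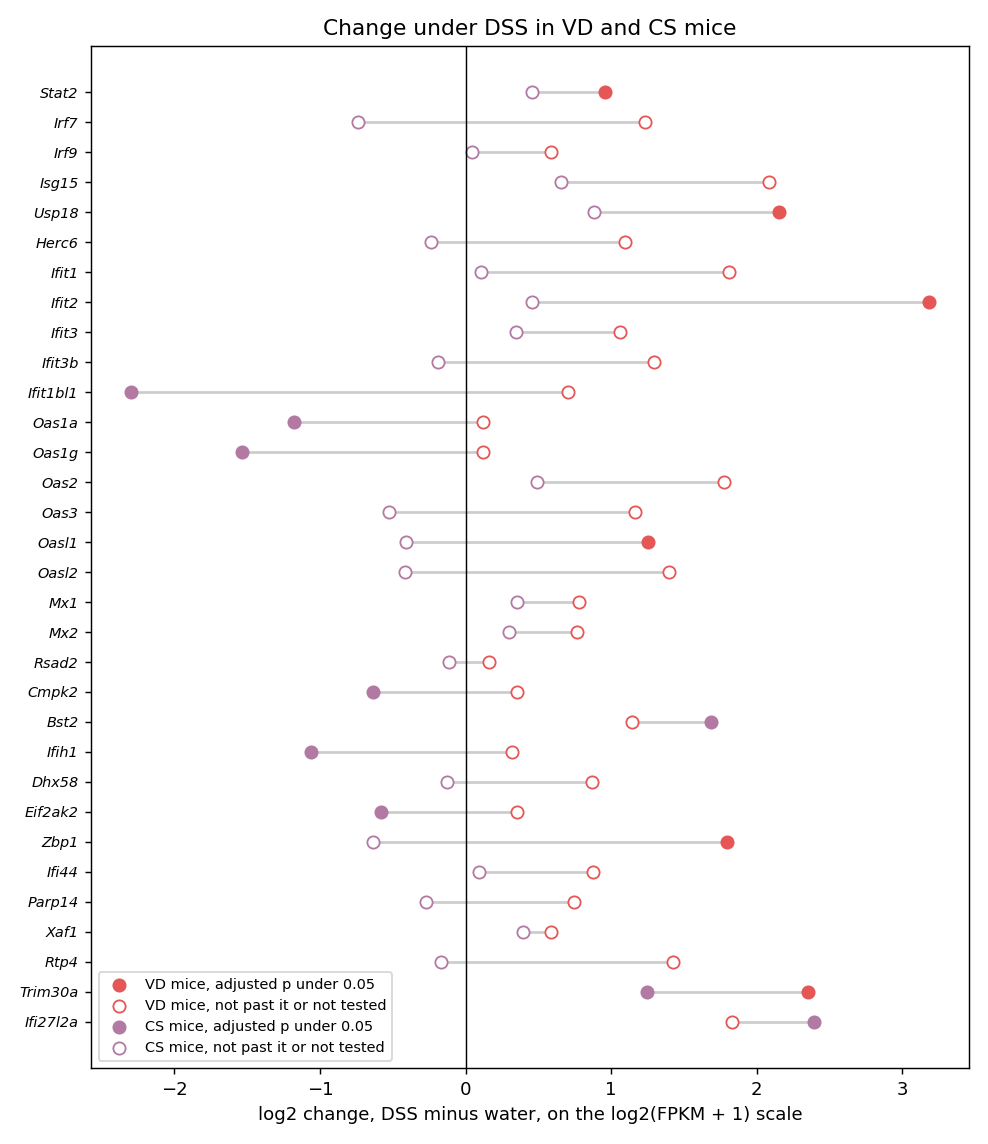
Log2 change under DSS, on the log2(FPKM + 1) scale, of each interferon-stimulated gene in VD mice (red) and CS mice (purple), with filled points for an adjusted p under 0.05. Every red point lies above 0, and 17 purple points lie below it, with Ifit1bl1 farthest left at -2.30.

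The interaction tests whether the DSS response differed between the birth modes, with all 16 libraries. Ifit1bl1, Ifih1 and Zbp1 had a lower response in CS mice, 3 of 32 beside 6.55% of all genes in this direction, and none a higher one (6.68% of all genes). Ifit1bl1 had means in VD mice of 116 FPKM on water and 192 under DSS (limma adjusted p = 0.148) and fell in CS mice, and the responses differed by -3.002 ± 0.61 on the log2 scale (adjusted p = 0.0118). The difference was -1.38 ± 0.32 for Ifih1 (adjusted p = 0.0177). Zbp1 was at 14.0 ± 11.4 and 45.8 ± 20.4 in VD mice and at 25.3 ± 2.91 and 17.0 ± 8.33 in CS mice, a difference of -2.43 ± 0.62 (adjusted p = 0.0231). No call of these 3 genes was lost when any 1 library was left out. Without DSS_CS replicates 3 and 4 the adjusted p was 0.0374 for Ifit1bl1, 0.0546 for Ifih1 and 0.0757 for Zbp1 (limma). With no filter on low genes the Zbp1 call was also lost (limma adjusted p = 0.0580). Over all 32 members the median difference was -1.28 beside 0.04 for all genes, with 30 below 0 and Bst2 and Ifi27l2a above. Of all tested genes 54.2% were above 0. By role the median difference was -1.70 for the 5 IFIT genes, -1.66 for the 6 OAS genes, -1.34 for the ISG15 system and -1.19 for the 4 sensors. It was -0.90 for the other genes, -0.54 for the regulators and -0.42 for the 5 effectors. Without CON_VD replicate 1, 9 members had a lower response, beside 4.53% of all genes, and the count was 6 without DSS_VD replicate 4 or DSS_CS replicate 1, where 1945 of 15151 and 2515 of 15104 genes passed in either direction. Of the 10 epithelial markers 5 had a lower response in CS mice. All 5 erythrocyte markers and 4 of 6 neutrophil markers had a higher one, and 1 neutrophil marker a lower one. The part of these cells was not tested.

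Finally, CS and VD mice were compared under DSS. This comparison shares its libraries with the preceding ones. The members were mostly lower in DSS_CS, 30 of 32 with a median of -0.84 beside 0.06 over all genes, with Bst2 and Ifi27l2a above 0. Of all tested genes 58.4% were above 0. Ifit1bl1, Oas1g and Ifih1 were lower past the threshold, 3 of 32 beside 5.54% of all genes, and none was higher (7.89% of all genes). Ifit1bl1 was at 192 ± 73.7 and 43.8 ± 36.5 FPKM, a log2 difference of -2.30 ± 0.50 (adjusted p = 0.0330). Oas1g was at 27.6 ± 14.9 and 7.58 ± 4.65, a difference of -1.70 ± 0.46 (adjusted p = 0.0454). Ifih1 was at 9.57 ± 3.61 and 4.63 ± 1.33, a difference of -0.88 ± 0.25 (adjusted p = 0.0495). The groups were apart for Ifit1bl1 and Ifih1, 2 of 32 beside 7.18% of all genes that were lower in this way. By role, the median log2 difference was -1.37 for IFIT genes, -1.10 for OAS genes, -0.94 for the ISG15 system and -0.83 for sensors. It was -0.52 for the other genes, -0.46 for effectors and -0.30 for regulators.

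These calls changed with single libraries and with the settings. Ifih1 lost its call in 15 of 18 alternatives, among them a pseudocount of 0.1, both rescalings, no intensity trend and no filter, and Ifit1bl1 and Oas1g lost theirs in 8 and 9. The count was 0 without DSS_VD replicate 1 or 2 or DSS_CS replicate 2, 3 or 4, where 0, 51, 57, 1 and 639 of all genes passed. It was 1 without DSS_VD replicate 3 and 7 without DSS_CS replicate 1, where 1438 of 14111 and 2054 of 14081 genes passed. Over the alternatives the limma adjusted p ranged over 0.00206 to 0.158 for Ifit1bl1, 0.0138 to 0.220 for Oas1g and 0.0119 to 0.218 for Ifih1. Without DSS_VD replicate 1 the median was -0.48. Of the 10 epithelial markers 6 were lower in DSS_CS, and within that group the library with the highest epithelial sum, replicate 1 at 2372 against 789 to 1339, was also the highest for 28 of 32 members. In DSS_VD the highest epithelial sum, 4767, was in replicate 2 and the highest members in replicate 1, at 2781. Of 6 neutrophil markers 4 were higher and 1 lower in DSS_CS, with sums of 475 to 909 FPKM in DSS_VD and 742 to 1249.5 in DSS_CS. Of 5 erythrocyte markers 3 were higher, with sums of 241 to 975 and 903 to 9731. The part of epithelial, neutrophil and blood content in these differences was not tested.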

How the data were processed

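RNA-seq of 16 colon libraries was used as FPKM, deposited by the authors in 1 table of 39328 genes. Trizol extraction is stated per the labels' protocols. Cutadapt, FastQC and build GRCm38 appear, with no version, per the submitters' processing notes. The aligner, quantifier, annotation and strand setting were not given in the sources used here. Therefore reads of overlapping or antisense genes and of near copies may be shared. No read counts were used and depth is unknown: among genes under 0.3 FPKM, at most 0.978% of log2 ratios between 2 libraries, rounded to 0.01, fell on 1 value. FPKM sums were 280135 to 343423.

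Symbols came from a table of gene names, which matched 39181 identifiers. Positions came from GENCODE M21 on GRCm38. Tests were fitted across all genes of log2(FPKM + 1) values. The tool was limma 3.58.1 (R 4.3.3), whose prior variance followed mean level, for genes of at least 1 FPKM in at least 4 fitted libraries. They are two-sided, with Benjamini-Hochberg adjustment and a threshold of 0.05. The log2 scale with a pseudocount of 1 understates changes of low genes. Comparisons of 2 groups used their 8 libraries and the interaction all 16. Errors are SD over 4 libraries for levels and SE for log2 changes. Mx2 and Ifi44 were not tested on water, nor Ifi44 in CS mice. Members with full values are those past the threshold in any comparison, the most abundant of each role, and the 3 of smallest p per comparison. The members and lists were chosen with earlier results of these data known. A gene of the signalling list is not reported here. Fits were tested on simulated data with independent normal noise for each gene and 200 genes changed by 1 on the log2 scale. Over the comparisons 130 to 176 of these were recovered, with 4 to 11 false calls. Shifts that many genes share in 1 library were not simulated. Figures were drawn with matplotlib 3.10.9.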

Additional observations from a re-analysis of the deposited data

Results flagged for a closer look

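Of 128 sets of 4 libraries, 1 for each member and group, 21 held a library whose gap to the nearest other exceeded Dixon's 95% limit. Chance flags about 1 in 20 sets of normal values. The members move together by library and FPKM need not be normal, so the number of flags cannot be set against that rate. CON_VD replicate 1 was the high library in 9. In FPKM against the range of the other 3, these were Usp18 at 9.15 against 0.302 to 1.14, Ifit3 at 14.7 against 0.989 to 2.13, Ifit3b at 12.6 against 1.23 to 2.81, Oasl1 at 25.2 against 6.48 to 8.35, Bst2 at 57.1 against 12.05 to 19.1, Ifi44 at 2.34 against 0.0122 to 0.200, Xaf1 at 11.9 against 2.28 to 2.64, Trim30a at 13.9 against 1.08 to 3.06 and Ifi27l2a at 463 against 11.9 to 43.0. DSS_VD replicate 1 was high in 5, with Ifit1 at 65.0 against 8.75 to 16.2, Ifit3b at 25.7 against 5.40 to 8.41, Mx1 at 9.40 against 2.46 to 3.16, Rsad2 at 20.4 against 1.69 to 4.47 and Dhx58 at 18.7 against 5.63 to 7.68. DSS_CS replicate 1 was high in 5, with Usp18 at 6.82 against 2.66 to 2.82, Ifit1bl1 at 98.0 against 20.5 to 33.0, Oasl2 at 17.96 against 7.23 to 8.72, Zbp1 at 29.5 against 11.7 to 13.9 and Rtp4 at 19.2 against 10.3 to 10.7. In CON_CS replicate 4, Ifit1bl1 at 233 against 158 to 168 was high, and in DSS_CS replicate 2, Trim30a at 8.998 against 14.3 to 15.03 was low.

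The DSS response differed between CS and VD mice for 3 genes by the interaction test, with log2 differences of -3.002 for Ifit1bl1, -1.38 for Ifih1 and -2.43 for Zbp1. In CON_VD replicate 1 the leukocyte and B cell marker sums were 76.2 and 43.7 FPKM. In DSS_VD replicate 1 they were 366 and 262, beside 357 and 242 in replicate 3, which had no flag. The part of these cells in the high values was not tested.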

How the results depend on the processing

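Pseudocounts of 0.1 and 0.5, FPKM rescaled to a common sum, median-of-ratios scaling, no intensity trend and a required log2 change of 1 kept each of the 5 counts of members within 1.5 times its value, and no call on a member or pathway gene changed direction in the comparison where it passed. Single calls were lost under some of these settings, as for Stat2 in VD mice with a pseudocount of 0.1 and with median-of-ratios scaling. With no filter the count was 0 for CS against VD under DSS, where 3 of 32941 genes passed, and 2 for DSS in VD mice, where 6529 of 32595 did. In 1 fit on all 4 groups these counts were 6 and 10, beside 3871 of 15233 and 7107 of 15233 genes. Leaving out each library in turn gave 0 to 7 under DSS, 0 on water, 2 to 21 for DSS in VD mice, 7 to 12 for DSS in CS mice and 3 to 9 for the interaction, and medians of -1.04 to -0.48, 0.04 to 0.72, 0.75 to 1.52, -0.32 to 0.08 and -1.67 to -0.82. The median for DSS in CS mice turned to 0.0752 without CON_CS replicate 1, 0.0078 without DSS_CS replicate 2 and 0.0248 without DSS_CS replicates 3 and 4. Without those 2 libraries, which held Pbsn, the counts were 0 under DSS, 5 for DSS in CS mice and 1 for the interaction, beside 6 of 13756, 6284 of 12965 and 1102 of 14900 genes. Without replicate 1 of CON_VD and of DSS_VD together, an alternative chosen after seeing the data, 17 members rose in VD mice and 6 had a lower response in CS mice, beside 3401 of 12735 and 959 of 15076 genes in either direction. The cause was not tested. The labels do not state that replicate numbers pair mice. Over all tested genes, same-numbered libraries of 2 groups correlated in their deviations from the group means at -0.30 to 0.14. At most 3 of 8 libraries correlated best with their own number. Among the members, replicate 1 was the highest for 32, 26, 32 and 28 genes in CON_VD, CON_CS, DSS_VD and DSS_CS, so whether numbers pair mice is not settled. A replicate block gave counts of 0, 0, 21, 12 and 9 in the order above, where 2 of 14313, 7 of 13275, 5221 of 13933, 8247 of 14372 and 1520 of 15233 genes passed. Without counts, the depth behind low members such as Ifi44 and Mx2 is unknown.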
